A study of Homo sapiens with 32 samples.

Results

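Glucose handling by liver tumour cells was followed through 41 genes that transport glucose and lactate, run glycolysis, set the fate of pyruvate and run gluconeogenesis. These genes were chosen with earlier results of these data known. They were taken by symbol from a bead array table, older symbols of the same gene included, and were read by 59 probes. Probes detected (p under 0.05) on 4 or more of the 32 arrays were kept, which left 50 probes for 38 genes, of 12973 genes tested in all. The genes without such a probe were the insulin-responsive glucose transporter SLC2A4, detected on 3 arrays, the cytosolic phosphoenolpyruvate carboxykinase PCK1, detected on 0 arrays, and the lactate transporter SLC16A1, detected on 2 arrays. Of the 38 genes, 24 were detected on all 32 arrays and 14 on fewer.

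Total RNA of 2 human liver tumour lines was measured: Huh7, labelled an HCC line, and HepG2, labelled an HB line. Each of 8 groups held 4 arrays. In one subset each line received DMSO, the solvent control, or SAHA (vorinostat), an inhibitor of histone deacetylases. In the other subset each line received scrambled siRNA or siRNA against HDAC2, a class I histone deacetylase. The sources used here give no dose, duration or siRNA sequence. Nothing in the labels ties the 4 arrays of a group to separate cultures, so p-values measure the spread between these arrays, which may be technical.

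Glucose enters cells through SLC2A (GLUT) carriers and is trapped by hexokinases, after which phosphofructokinase takes the committed step of glycolysis under control of fructose 2,6-bisphosphate, whose level the PFKFB enzymes set. The lower steps yield pyruvate, which lactate dehydrogenase turns into lactate or the pyruvate dehydrogenase complex passes into mitochondria; the PDK kinases switch that complex off. Normal hepatocytes use glucokinase, the carrier SLC2A2 and the liver isozymes PFKL and PKLR, and can release glucose through gluconeogenesis, whereas liver tumours are known for a shift towards HK2 and other isozymes found outside adult liver.

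Many promoters of this pathway are known to carry the core hypoxia response motif ACGTG, and the palindrome CACGTG, which holds ACGTG on both strands, is the E-box bound by MYC and by carbohydrate response factors. The motifs were searched on both strands in the 250 bases before each RefSeq start (GRCh38.p14), a match being a description and not a site. ACGTG stood in 26 of 71 windows of 36 genes (36.6%), against 18.5% of 35116 windows of all genes, and CACGTG in 12 (16.9%), against 6.34%. SLC2A3 and PFKFB2 had no window. Windows of neighbouring starts can overlap, as those of G6PC3 did, so a match can count more than once. Of the 8 genes that fell with SAHA in both lines, 4 held ACGTG in a window and 2 held CACGTG. Of the 4 genes with a window that rose in both lines, 2 held ACGTG and 1 held CACGTG. These are counts of genes over all their windows, so the shares of windows above are no background for them. A share by gene was not counted, so whether these sets hold the motifs more often than other genes is not shown. HK1, the gene with the largest rise, had 7 starts and these letters stood before none of them. The windows below, each with a match, are those of 3 genes that fell with SAHA in both lines, 1 that rose in both and 1 that moved in opposite directions; they are written 5′ to 3′ on the strand of the gene, with ACGTG, its reverse complement or CACGTG in capitals; where a gene had 2 starts, the window with more matches is shown.
HK2, chr2:74834920-74835169, plus strand: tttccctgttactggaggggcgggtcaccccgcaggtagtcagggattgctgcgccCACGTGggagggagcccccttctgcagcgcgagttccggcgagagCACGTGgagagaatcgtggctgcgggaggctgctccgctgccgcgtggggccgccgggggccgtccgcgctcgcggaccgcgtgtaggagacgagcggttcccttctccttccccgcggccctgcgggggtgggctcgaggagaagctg
LDHA, chr11:18394313-18394562, plus strand: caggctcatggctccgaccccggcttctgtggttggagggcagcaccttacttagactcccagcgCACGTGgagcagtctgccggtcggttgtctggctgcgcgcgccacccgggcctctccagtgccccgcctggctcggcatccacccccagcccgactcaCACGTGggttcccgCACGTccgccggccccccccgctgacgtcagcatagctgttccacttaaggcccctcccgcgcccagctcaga
PGK1, chrX:78103998-78104247, plus strand: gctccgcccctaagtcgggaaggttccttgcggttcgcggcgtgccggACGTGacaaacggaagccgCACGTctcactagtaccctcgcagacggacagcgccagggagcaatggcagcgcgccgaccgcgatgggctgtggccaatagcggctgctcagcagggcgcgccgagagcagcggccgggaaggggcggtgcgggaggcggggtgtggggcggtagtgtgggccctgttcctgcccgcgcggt
ALDOC, chr17:28576896-28577145, minus strand: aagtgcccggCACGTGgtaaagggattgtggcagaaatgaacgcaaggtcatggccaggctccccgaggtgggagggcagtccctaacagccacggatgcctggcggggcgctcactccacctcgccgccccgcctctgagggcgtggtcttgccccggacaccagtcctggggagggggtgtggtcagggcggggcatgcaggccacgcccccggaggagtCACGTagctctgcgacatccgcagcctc
PFKFB3, chr10:6202682-6202931, plus strand: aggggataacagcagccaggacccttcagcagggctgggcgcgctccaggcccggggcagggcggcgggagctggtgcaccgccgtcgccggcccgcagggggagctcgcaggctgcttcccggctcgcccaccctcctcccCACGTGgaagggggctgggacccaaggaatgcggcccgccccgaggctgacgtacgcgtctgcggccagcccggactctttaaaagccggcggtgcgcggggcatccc
The letters thus stand before genes of each direction, HK2, LDHA and PGK1 having fallen and ALDOC having risen.

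All levels below are normalized log2 signals of 1 probe a gene, in the order of replicates 1 to 4; a difference of 1 is a 2-fold change, and levels of different probes are not set against each other. Changes come from one limma model of all 32 arrays with Benjamini-Hochberg adjustment over 12973 genes, and genes with an adjusted p under 0.05 are those called. Before normalization the median signal of an array ran from 118.2 to 195.5, and between 48.3% and 54.9% of probes were detected; the number of arrays limits the precision. HDAC2 itself was 12.10, 12.06, 12.02 and 12.00 on the scrambled siRNA arrays of Huh7 and 8.82, 8.62, 8.62 and 8.73 on the HDAC2 siRNA arrays, a change of -3.35 (SE 0.10, adjusted p = 3.52e-21), and it fell by 3.05 in HepG2 as well (adjusted p = 2.15e-19). With SAHA, HDAC2 changed by 0.45 (adjusted p = 0.000338) in Huh7 and by -0.16 (adjusted p = 0.207) in HepG2. In bulk RNA, fewer cells of a type and less RNA per cell cannot be told apart.

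SAHA called 23 of the 38 genes in Huh7 and 27 in HepG2, and HDAC2 siRNA called 20 and 12. Over all genes SAHA called 60.7% and 54.5% and siRNA 45.3% and 36.6%. SAHA called more than siRNA in each line, among the 38 and over all genes. Among the 38, SAHA called more in HepG2 than in Huh7, whereas over all genes it called fewer there. In Huh7, 8 of the 38 genes rose and 15 fell, with a median change of -0.10, while 31.6% of all genes rose and 29.1% fell, with a median of 0.01. In HepG2, 13 rose and 14 fell (median 0.02), against 26.9% and 27.6% of all genes. HDAC2 siRNA called 8 genes higher and 12 lower in Huh7 (all genes 22.9% and 22.4%), and 4 higher and 8 lower in HepG2 (all genes 18.8% and 17.9%). The genes that fell made up 39.5%, 36.8%, 31.6% and 21.1% of the pathway in these 4 comparisons, against the shares of all genes just given, and the last of these lay close to its background; no test of the list was made. The estimated changes of called genes reached 2-fold for 13 genes in Huh7 and 9 in HepG2 with SAHA, and for 4 and 2 with siRNA. Of the 9 in HepG2, PKLR, PDK4 and FBP1 had a group in which no array detected them. Their folds are bounds, given below, that lie under 2. The share of all genes with a 2-fold change was not counted, so these counts have no background here. The 4 control and 4 treated arrays did not overlap for 22 of 23 called genes with SAHA in Huh7, 26 of 27 in HepG2, 17 of 20 with siRNA in Huh7 and 8 of 12 in HepG2. Over all called genes the groups did not overlap for 87.3%, 89.8%, 89.6% and 67.4%. When arrays were scaled to a common median and not quantile normalized, the median of all genes was -0.13 for SAHA in Huh7 and -0.17 in HepG2, and the higher share of called genes went from 52.0% to 39.1% and from 49.4% to 32.3%.

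**Figure D1:**
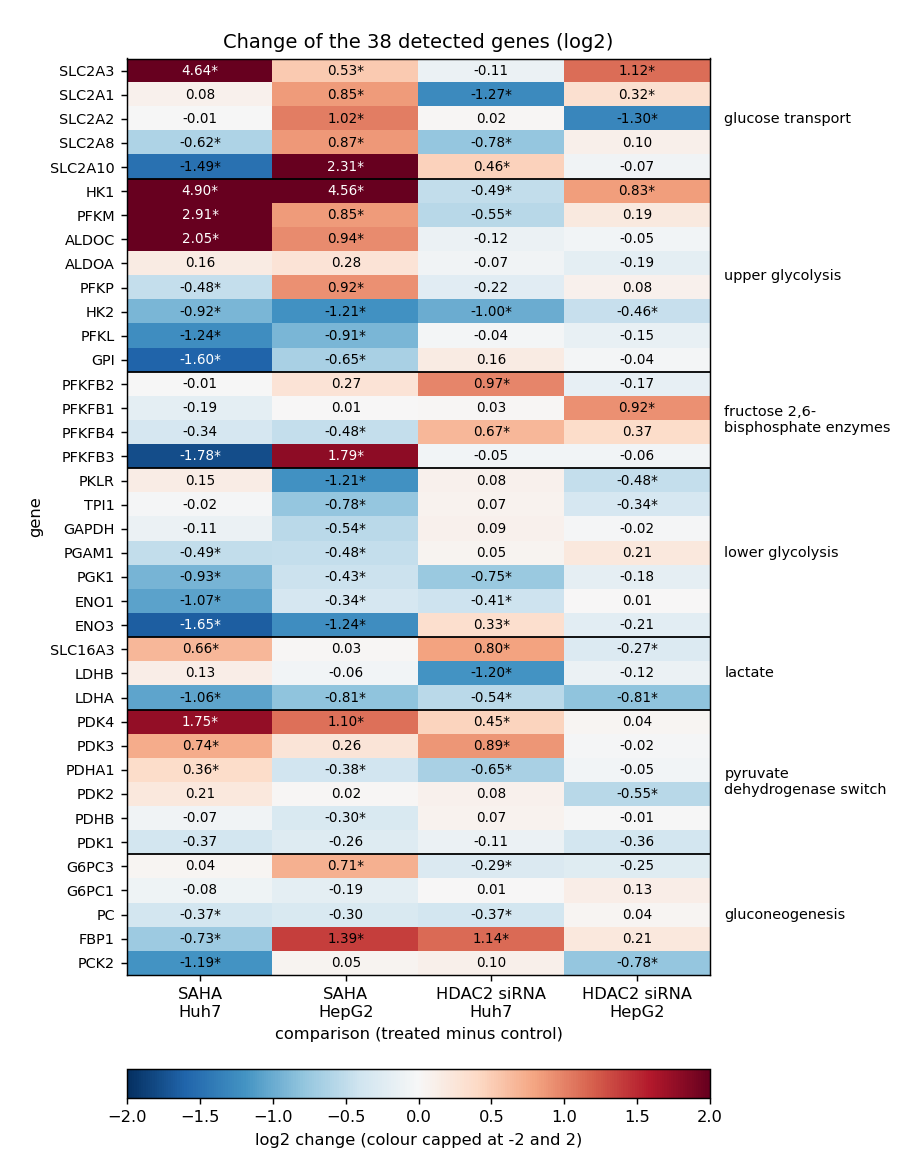
Log2 change of each of the 38 detected genes (rows, grouped by role) in the 4 treatment comparisons (columns, treated minus control, n = 4 against 4); colour gives the change, capped at -2 and 2, and an asterisk an adjusted p under 0.05. HK1 rose by 4.90 and 4.56 with SAHA, the 7 genes of lower glycolysis all fell with SAHA in HepG2, and the siRNA columns are paler.

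Of the 38 genes, HK2 and LDHA were the ones called lower in all 4 comparisons, and no gene was called higher in all 4. ALDOA, PDK1 and G6PC1 were called in none. SAHA raised SLC2A3, HK1, PFKM, ALDOC and PDK4 in both lines and lowered HK2, GPI, PFKL, PGK1, PGAM1, ENO1, ENO3 and LDHA in both. SLC2A8, SLC2A10, PFKP, PFKFB3, PDHA1 and FBP1 were called in opposite directions in the 2 lines. HDAC2 siRNA lowered HK2 and LDHA in both lines, and called SLC2A1, HK1 and SLC16A3 in opposite directions.

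Among the glucose carriers, all 5 detected members rose with SAHA in HepG2, whereas in Huh7 SLC2A3 rose and SLC2A8 and SLC2A10 fell. Of all genes 26.9% rose in HepG2, and 31.6% rose and 29.1% fell in Huh7, and no test of the list was made. SLC2A3 (GLUT3), a high-affinity carrier typical of neurons and many tumours, was 5.94, 5.79, 5.94 and 5.75 in Huh7 with DMSO and 10.65, 10.55, 10.51 and 10.29 with SAHA. Every SAHA array lay above every DMSO array, a rise of 4.64 (SE 0.12, adjusted p = 4.5e-24) or 25-fold, rank 15 among the rises of all genes. In HepG2 the SLC2A3 probe was already bright with DMSO, 12.28, 12.35, 12.76 and 12.71, and read 13.02, 13.04, 13.00 and 13.18 with SAHA, a rise of 0.53 (SE 0.12, adjusted p = 0.0003). HDAC2 siRNA raised SLC2A3 in HepG2 from 13.52, 13.50, 13.71 and 13.86 to 14.74, 14.74, 14.66 and 14.93, by 1.12 (SE 0.12, adjusted p = 1.06e-08), and the Huh7 change was -0.11 (adjusted p = 0.484). SLC2A3 has a near-identical copy, SLC2A14, and probe sequences were not used here, so the 2 cannot be told apart by this probe.

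SLC2A10 (GLUT10), a carrier linked to arterial tortuosity, went in opposite directions under SAHA. In Huh7 it was 6.54, 6.19, 6.41 and 6.58 with DMSO and 4.85, 4.87, 5.22 and 4.83 with SAHA, where no array detected it, so it was at least 2.19-fold lower (adjusted p = 1.02e-10). In HepG2 it rose from 8.84, 8.45, 8.82 and 8.85 to 11.04, 11.10, 11.00 and 11.05, by 2.31 (SE 0.14, adjusted p = 4.81e-15). The groups did not overlap in either line. With siRNA in Huh7 its values were 4.62, 4.69, 4.91 and 5.34 against 5.65, 5.10, 5.37 and 5.26, detected on 1 and 2 of 4 arrays; the call of 0.46 (adjusted p = 0.00785) was lost with an offset of 50 (adjusted p = 0.0571) and without HDAC2 siRNA replicate 1 (0.36, adjusted p = 0.0503).

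SLC2A2 (GLUT2), the carrier of hepatocytes, was detected on no Huh7 array. In HepG2 it was 7.80, 7.63, 7.58 and 7.40 with DMSO and 8.51, 8.63, 8.68 and 8.68 with SAHA, a rise of 1.02 (SE 0.13, adjusted p = 4.38e-08). With siRNA it went the other way, from 9.63, 9.56, 9.47 and 9.93 to 8.53, 8.25, 8.18 and 8.44, a change of -1.30 (SE 0.13, adjusted p = 2.42e-09). All 4 treated arrays lay outside the range of their controls in both cases. SLC2A1 (GLUT1), the carrier most tissues use for basal uptake, fell with siRNA in Huh7 from 8.68, 8.63, 8.89 and 8.87 to 7.49, 7.38, 7.43 and 7.69, a change of -1.27 (SE 0.11, adjusted p = 4.7e-11). In HepG2 SLC2A1 rose with SAHA from 12.42, 12.55, 12.91 and 12.82 to 13.57, 13.50, 13.49 and 13.52, by 0.85 (SE 0.11, adjusted p = 8.05e-08). The siRNA change of SLC2A1 in HepG2, 0.32 (adjusted p = 0.0214), was not called when the HepG2 siRNA arrays were fitted alone (adjusted p = 0.0931), with array weights (adjusted p = 0.0849) or without HDAC2 siRNA replicate 1 or 4 (adjusted p = 0.0672 and 0.0626). SLC2A8 (GLUT8), an intracellular carrier, fell in Huh7 with SAHA, from 11.65, 11.64, 11.61 and 11.65 to 11.03, 10.89, 11.17 and 10.98 (-0.62, SE 0.12, adjusted p = 4.71e-05), and with siRNA (-0.78, adjusted p = 2.74e-06). In HepG2 SLC2A8 rose with SAHA from 10.80, 11.00, 11.02 and 10.78 to 11.91, 11.70, 11.76 and 11.72, by 0.87 (SE 0.12, adjusted p = 2.87e-07).

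**Figure D2:**
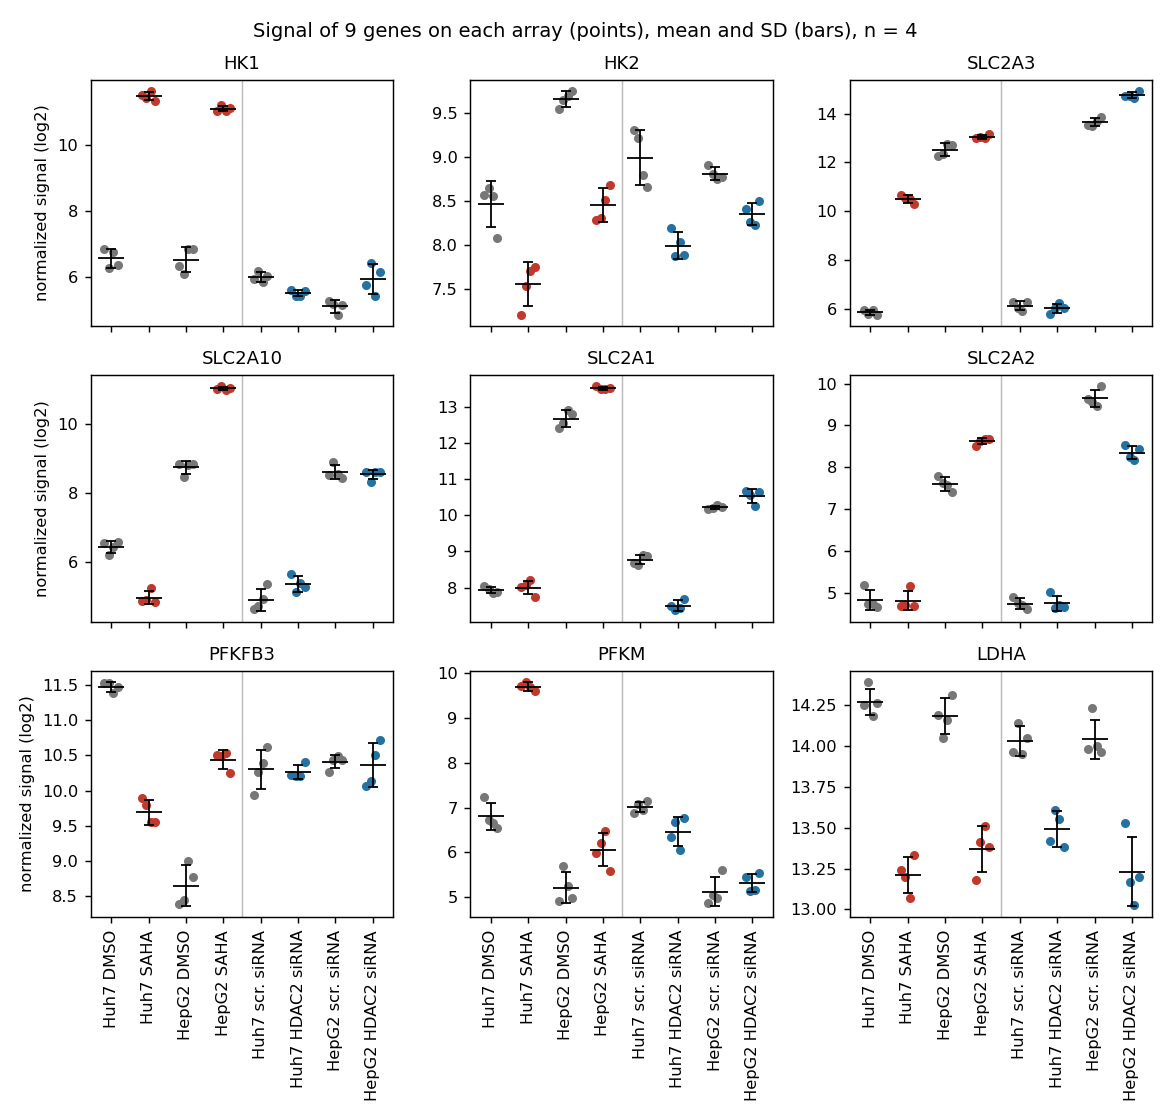
Normalized log2 signal (y axis) of 9 genes on each of 4 arrays (points; grey, controls; red, SAHA; blue, HDAC2 siRNA) in the 8 groups (x axis), with the mean and SD as bars; each panel has its own y range, which does not start at 0. HK1 stands near 11 on all SAHA arrays and under 7 on all others, while HK2 and LDHA are lower in every treated group than in its controls.

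In upper glycolysis, SAHA raised HK1, PFKM and ALDOC and lowered HK2, GPI and PFKL in both lines. HK1, the hexokinase of brain and red cells, was 6.85, 6.29, 6.75 and 6.37 in Huh7 with DMSO and 11.49, 11.42, 11.62 and 11.33 with SAHA. The rise of 4.90 (SE 0.17, adjusted p = 6.2e-21), or 29.9-fold, ranked 7 among the rises of all genes. HepG2 gave 6.34, 6.09, 6.85 and 6.85 with DMSO and 11.03, 11.21, 11.02 and 11.11 with SAHA, a rise of 4.56 (SE 0.17, adjusted p = 3.33e-20), rank 19. The test between lines gave -0.34 (SE 0.24, adjusted p = 0.252), and on every SAHA array of both lines HK1 stood above 11. The table holds 4 HK1 probes, and this one was the only one of them to pass detection. A second was detected on 1 Huh7 and 2 HepG2 SAHA arrays and on no other array, at 5.08 ± 0.29 and 5.29 ± 0.08 (SD, n = 4) against 4.63 ± 0.02 and 4.68 ± 0.09 with DMSO. The remaining 2 HK1 probes were detected on no array, so which HK1 transcripts rose is not resolved here.

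HDAC2 siRNA changed HK1 far less than SAHA did. HepG2 arrays with scrambled siRNA did not detect it (5.29, 5.19, 4.86 and 5.15) and 3 of 4 HDAC2 siRNA arrays did (5.78, 6.44, 5.42 and 6.16), at least 1.42-fold higher (adjusted p = 0.000277). In Huh7 HK1 was 5.94, 6.19, 5.86 and 6.04 with scrambled siRNA and 5.61, 5.44, 5.45 and 5.59 with HDAC2 siRNA, a change of -0.49 (adjusted p = 0.0198) that was lost without background correction (-0.17, adjusted p = 0.091) and without scrambled siRNA replicate 2 (-0.43, adjusted p = 0.0662). The difference between the SAHA and siRNA effects on HK1 was 5.39 (SE 0.24, adjusted p = 7.76e-18) in Huh7 and 3.74 (SE 0.24, adjusted p = 5.1e-14) in HepG2, where the scrambled siRNA level was at background.

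HK2, the hexokinase that tumours commonly induce, fell under all 4 treatments. SAHA took it from 8.57, 8.65, 8.55 and 8.08 to 7.20, 7.53, 7.70 and 7.75 in Huh7 (-0.92, SE 0.14, adjusted p = 9.7e-07), and from 9.55, 9.65, 9.69 and 9.75 to 8.28, 8.31, 8.51 and 8.68 in HepG2 (-1.21, SE 0.14, adjusted p = 7.47e-09). With HDAC2 siRNA it went from 9.30, 9.22, 8.79 and 8.66 to 8.19, 7.87, 8.03 and 7.88 in Huh7 (means of 8.99 with scrambled and 7.99 with HDAC2 siRNA, SE of the difference 0.14, adjusted p = 4.59e-07) and from 8.91, 8.80, 8.75 and 8.77 to 8.41, 8.26, 8.23 and 8.50 in HepG2 (-0.46, SE 0.14, adjusted p = 0.00944). No treated array overlapped the controls of its group in any of the 4 comparisons. The HepG2 siRNA call was lost with array weights (adjusted p = 0.0694). SAHA therefore changed the 2 hexokinases in opposite directions in both lines, while siRNA in Huh7 lowered both.

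The phosphofructokinase subunits diverged in a similar way. PFKM, the muscle subunit, was 7.24, 6.73, 6.66 and 6.55 in Huh7 with DMSO and 9.72, 9.80, 9.70 and 9.60 with SAHA, a rise of 2.91 (SE 0.19, adjusted p = 1.51e-14). PFKL, the liver subunit, went from 9.28, 8.78, 8.97 and 9.19 to 7.92, 7.54, 8.22 and 7.59, a change of -1.24 (SE 0.16, adjusted p = 7.69e-08). In both cases the groups were apart. In HepG2 PFKM was detected on 1 of 4 DMSO arrays and all SAHA arrays and changed by 0.85 (adjusted p = 0.000255), the one called gene of that comparison whose groups overlapped, and PFKL changed by -0.91 (adjusted p = 1.68e-05). A second PFKL probe, detected on 5 arrays, changed by 0.11 and 0.06 and was not called. PFKP, the platelet subunit, rose with SAHA in HepG2 from 6.19, 6.78, 6.23 and 6.03 to 7.25, 7.07, 7.19 and 7.40, by 0.92 (SE 0.12, adjusted p = 4.88e-08); in Huh7 it was 5.50, 5.03, 5.22 and 5.35 with DMSO, detected on 2 arrays, and 4.86, 4.72, 4.81 and 4.79 with SAHA, detected on none (adjusted p = 0.000594), too dim for a fold. PFKM fell with siRNA in Huh7 from 6.88, 7.08, 6.94 and 7.14 to 6.35, 6.68, 6.06 and 6.76 (-0.55, adjusted p = 0.0159), a call lost without HDAC2 siRNA replicate 3 (adjusted p = 0.0881) and in the authors' deposited normalized values (adjusted p = 0.0787).

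GPI, which makes fructose 6-phosphate, fell with SAHA in Huh7 from 11.55, 11.43, 11.34 and 11.38 to 9.69, 9.67, 9.91 and 10.01, a change of -1.60 (SE 0.10, adjusted p = 4.08e-15), and changed by -0.65 (adjusted p = 1.21e-06) in HepG2. The HepG2 fall was smaller by the test between lines (0.96, adjusted p = 7.63e-07). ALDOC, the aldolase of brain, rose in Huh7 from 11.47, 11.51, 11.30 and 11.04 to 13.38, 13.44, 13.44 and 13.27, by 2.05 (SE 0.15, adjusted p = 3.42e-13), and in HepG2 from 10.23, 10.25, 10.66 and 10.48 to 11.40, 11.26, 11.40 and 11.31, by 0.94 (SE 0.15, adjusted p = 3.2e-06). Here too no SAHA array overlapped a DMSO array. ALDOA, the aldolase of muscle and most tumours, was called in no treatment comparison by any of its 3 detected probes, with changes of its brightest probe between -0.19 and 0.28. With siRNA, GPI, PFKL, PFKP, ALDOA and ALDOC were called in neither line.

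**Figure D3:**
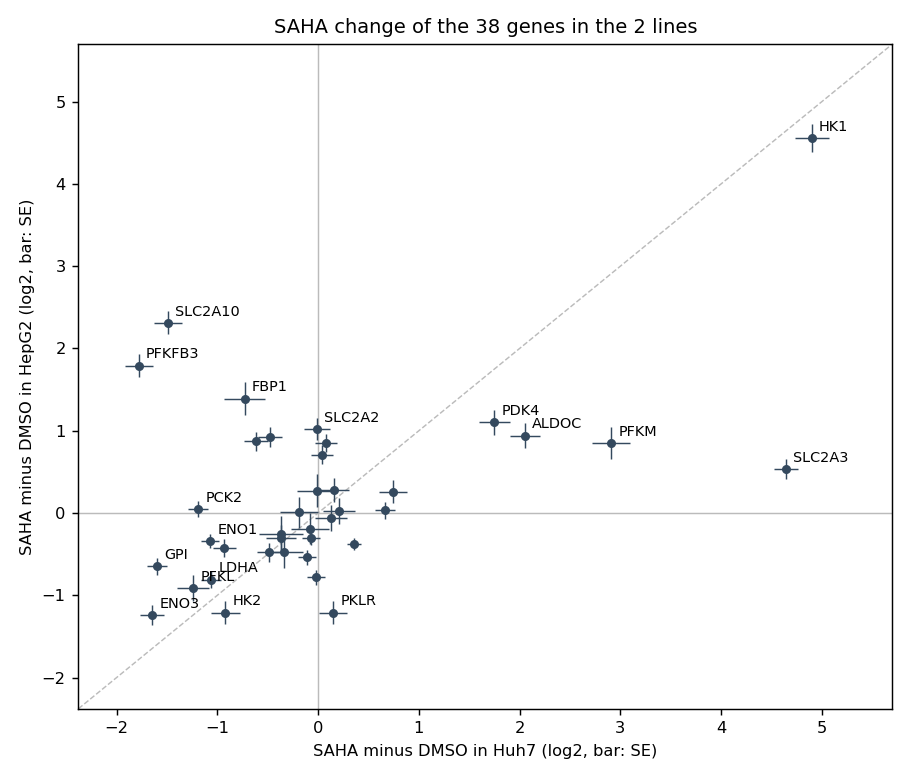
SAHA minus DMSO change (log2) in Huh7 (x axis) and HepG2 (y axis) of the 38 genes, with SE bars from the model; the dashed line marks equal change, and genes with a change of at least 1 in a line are named. HK1 lies near the line at 4.90 and 4.56, SLC2A3 rose mainly in Huh7, and SLC2A10 (-1.49 and 2.31) and PFKFB3 (-1.78 and 1.79) lie in the upper left.

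The 4 enzymes that make and break fructose 2,6-bisphosphate behaved individually. PFKFB3, the isozyme with high kinase activity, was 11.53, 11.52, 11.38 and 11.47 in Huh7 with DMSO and 9.89, 9.79, 9.55 and 9.55 with SAHA, a change of -1.78 (SE 0.14, adjusted p = 2.28e-12). In HepG2 it went from 8.39, 8.45, 9.00 and 8.77 to 10.50, 10.49, 10.53 and 10.25, a rise of 1.79 (SE 0.14, adjusted p = 2.56e-12). The groups were apart in both lines, and the effects differed by 3.57 (SE 0.20, adjusted p = 2.06e-15). The DMSO levels of the 2 lines differed by -2.82 (HepG2 minus Huh7, adjusted p = 2.44e-17), and with SAHA the ranges were 9.55 to 9.89 in Huh7 and 10.25 to 10.53 in HepG2. HDAC2 siRNA changed PFKFB3 by -0.05 (adjusted p = 0.826) and -0.06 (adjusted p = 0.8).

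PFKFB2, the heart isozyme, rose with siRNA in Huh7 from 5.75, 5.79, 5.60 and 6.05 to 6.72, 6.91, 6.76 and 6.66, by 0.97 (SE 0.20, adjusted p = 0.000176). A second probe, detected on 11 arrays, gave 0.76 in that comparison and 0.76 (adjusted p = 0.00033) with SAHA in Huh7, where the main probe gave -0.01. PFKFB1, the liver isozyme, was dim on most arrays and was 4.78, 4.85, 6.08 and 5.11 with scrambled siRNA and 6.20, 6.29, 6.05 and 5.96 with HDAC2 siRNA in HepG2 (0.92, SE 0.19, adjusted p = 0.000335). The groups overlapped through scrambled siRNA replicate 3, and in the authors' deposited normalized values the change was 1.34 and was not called (adjusted p = 0.147). PFKFB4, the testis isozyme, rose with siRNA in Huh7 from 6.48, 6.59, 6.70 and 6.81 to 7.17, 7.20, 7.29 and 7.60 (0.67, SE 0.19, adjusted p = 0.00419) and was 9.31, 9.37, 10.04 and 9.84 with DMSO and 9.28, 9.26, 8.93 and 9.16 with SAHA in HepG2 (-0.48, adjusted p = 0.0331), a call lost without DMSO replicate 3 or 4 or SAHA replicate 3 or 4 (adjusted p up to 0.149).

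In lower glycolysis, 7 of 7 members fell with SAHA in HepG2 (27.6% of all genes fell), and in Huh7 4 of 7 fell (29.1% of all genes) while TPI1, GAPDH and PKLR were not called. The median change of the 7 was -0.54 and -0.49, against -0.01 and 0.01 for all genes, and no test of the list was made. ENO3, the muscle enolase, fell from 10.59, 10.47, 10.48 and 10.36 to 8.92, 8.80, 8.96 and 8.62 in Huh7 (-1.65, SE 0.12, adjusted p = 1.29e-13) and from 9.89, 9.79, 9.79 and 9.65 to 8.44, 8.74, 8.51 and 8.47 in HepG2 (-1.24, SE 0.12, adjusted p = 1.06e-10). Its second probe fell by 2.14 and 1.67. ENO1, the enolase of most tissues, went from 14.59, 14.52, 14.60 and 14.57 to 13.35, 13.41, 13.66 and 13.60 in Huh7 (-1.07, SE 0.09, adjusted p = 3.26e-12) and fell by 0.34 in HepG2. Its Huh7 fall was the larger of the 2 by the test between lines (0.72, adjusted p = 8.96e-06).

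TPI1, which interconverts the triose phosphates, fell in HepG2 from 13.40, 13.22, 13.50 and 13.58 to 12.63, 12.65, 12.60 and 12.69 (-0.78, SE 0.09, adjusted p = 1.38e-08), and gave -0.02 (adjusted p = 0.895) in Huh7. PKLR, the pyruvate kinase of liver and red cells, was 5.98, 6.14, 6.38 and 6.35 in HepG2 with DMSO and 4.79, 5.21, 5.14 and 4.88 with SAHA, where no array detected it, at least 1.91-fold lower (adjusted p = 9.77e-09). Of its other 2 detected probes, one fell by 0.75 and one changed by -0.06 and was not called, and in the authors' deposited normalized values PKLR changed by -0.03 (adjusted p = 0.936). No Huh7 array detected the main PKLR probe. PGK1, which makes the first ATP of the pathway, fell by 0.93 in Huh7 and by 0.43 in HepG2 (adjusted p = 1.77e-08 and 0.00173), and PGAM1, a phosphoglycerate mutase, by 0.49 and 0.48. GAPDH, often used as a reference gene, fell with SAHA in HepG2 from 14.25, 14.07, 14.14 and 14.17 to 13.70, 13.67, 13.54 and 13.57 (-0.54, SE 0.09, adjusted p = 2.84e-06), and its second probe fell by 0.63. In Huh7 GAPDH gave -0.11 (adjusted p = 0.284), which became -0.31 and was called when arrays were scaled to a common median (adjusted p = 0.0164).

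HDAC2 siRNA called 1 of the 7 higher and 2 lower in Huh7, and 0 higher and 2 lower in HepG2. In Huh7 PGK1 fell by 0.75 (adjusted p = 1.87e-06) and ENO1 by 0.41 (adjusted p = 0.00019). ENO3 was 8.63, 8.93, 8.76 and 8.95 with scrambled siRNA and 9.16, 8.90, 9.02 and 9.51 with HDAC2 siRNA in Huh7, groups that overlapped (0.33, SE 0.12, adjusted p = 0.0196), and the call was lost without scrambled siRNA replicate 1 or HDAC2 siRNA replicate 4 (adjusted p up to 0.141), with arrays scaled to a common median (adjusted p = 0.0654) and with the compared arrays fitted alone (adjusted p = 0.057). Its second probe gave 0.95 (adjusted p = 0.000142). In HepG2 TPI1 gave -0.34 (adjusted p = 0.00472) and PKLR -0.48 (adjusted p = 0.00795), both lost when the HepG2 siRNA arrays were fitted alone (adjusted p = 0.102 and 0.0982), that of PKLR also without HDAC2 siRNA replicate 4 (adjusted p = 0.0506) and in the authors' deposited normalized values (-0.47, adjusted p = 0.229). Scaling to a common median took TPI1 to -0.13 (adjusted p = 0.472). The PKLR, PDK2 and SLC2A1 arrays of the 2 siRNA groups of HepG2 overlapped. GAPDH in HepG2 gave -0.02 by its brighter probe, 0.30 by the other (adjusted p = 0.019) and 0.36 with arrays scaled to a common median, so its direction depends on probe and scaling. ENO1 in HepG2 gave 0.01, and 0.43 (adjusted p = 0.00211) with that scaling.

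LDHA, the subunit that favours lactate production, fell in all 4 comparisons. It was 14.25, 14.39, 14.18 and 14.26 with DMSO and 13.24, 13.20, 13.07 and 13.33 with SAHA in Huh7 (-1.06, SE 0.10, adjusted p = 9.26e-11), and 14.19, 14.05, 14.16 and 14.31 and 13.18, 13.41, 13.51 and 13.38 in HepG2 (-0.81, SE 0.10, adjusted p = 3.28e-08). HDAC2 siRNA took it from 13.96, 14.14, 13.95 and 14.05 to 13.42, 13.61, 13.55 and 13.38 in Huh7 (-0.54, SE 0.10, adjusted p = 4.18e-05) and from 13.98, 14.23, 14.00 and 13.96 to 13.53, 13.17, 13.03 and 13.20 in HepG2 (-0.81, SE 0.10, adjusted p = 1.54e-07). Treated and control arrays were apart each time, and the 4 calls held under every alternative run. The difference between the SAHA and siRNA effects on LDHA in HepG2 was 0.00 (SE 0.14, adjusted p = 0.992), and it became -0.45 and was called with arrays scaled to a common median.

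LDHB, the subunit of heart and red cells, was detected on 3 of the 16 arrays of the SAHA subset and on none of the HepG2 siRNA arrays. In Huh7 it was 7.63, 7.35, 7.72 and 7.65 with scrambled siRNA and 6.37, 6.46, 6.48 and 6.23 with HDAC2 siRNA, a change of -1.20 (SE 0.16, adjusted p = 1.56e-07) with no overlap. SLC16A3 (MCT4), the carrier through which glycolytic cells release lactate, rose in Huh7 with SAHA from 11.35, 11.14, 11.13 and 11.19 to 11.98, 11.77, 11.87 and 11.85 (0.66, SE 0.10, adjusted p = 1.93e-06). With siRNA in Huh7 it rose from 9.03, 8.52, 8.56 and 9.04 to 9.67, 9.44, 9.64 and 9.59 (0.80, SE 0.10, adjusted p = 1.7e-07). In HepG2 its siRNA values were 13.17, 13.20, 13.23 and 13.12 against 12.77, 12.85, 12.99 and 13.04 (-0.27, adjusted p = 0.0467), a change of -0.01 with arrays scaled to a common median and not called in 18 of the 32 fits that left out 1 array (adjusted p up to 0.129). SAHA did not bring SLC16A3 past the threshold in HepG2 (0.03).

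At the pyruvate dehydrogenase switch, SAHA raised PDK3 and PDK4 of the 4 kinases in Huh7 and PDK4 alone in HepG2, while PDK1 and PDK2 were called in neither line. PDK4, the kinase induced by fasting, went from 5.77, 5.85, 5.43 and 6.00 to 7.29, 7.46, 7.37 and 7.91 in Huh7 (1.75, SE 0.15, adjusted p = 1.96e-11). In HepG2 no DMSO array detected PDK4 (4.80, 5.17, 4.53 and 4.73) and all 4 SAHA arrays did (5.64, 5.92, 6.32 and 5.78), at least 1.43-fold higher (adjusted p = 2.74e-07). Both groups were apart from their controls. PDK3, a kinase known as hypoxia-inducible, rose in Huh7 with SAHA from 6.77, 7.03, 6.62 and 6.77 to 7.65, 7.45, 7.58 and 7.46 (0.74, SE 0.14, adjusted p = 4.47e-05) and with siRNA from 5.84, 5.59, 5.67 and 5.63 to 6.53, 6.31, 6.77 and 6.71 (0.89, SE 0.14, adjusted p = 5.07e-06). In HepG2 PDK3 gave 0.26 (adjusted p = 0.129) and -0.02 (adjusted p = 0.947). With siRNA in Huh7 PDK4 gave 0.45 (adjusted p = 0.0164), a call lost without HDAC2 siRNA replicate 3 (adjusted p = 0.0699), without background correction (0.16, adjusted p = 0.108) and in the authors' deposited normalized values (0.47, adjusted p = 0.679). PDK2, the broadly expressed kinase, was 5.17, 5.68, 5.57 and 5.94 with scrambled siRNA in HepG2, detected on 3 arrays, and 5.05, 5.20, 4.83 and 5.08 with HDAC2 siRNA, detected on none, at least 1.09-fold lower (adjusted p = 0.00678). In the authors' deposited normalized values the PDK2 change was -0.83 and was not called (adjusted p = 0.0554).

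PDHA1, the E1 alpha subunit that these kinases phosphorylate, fell with siRNA in Huh7 from 12.03, 12.12, 12.13 and 11.97 to 11.32, 11.46, 11.33 and 11.54 (-0.65, SE 0.07, adjusted p = 1.09e-08). With SAHA it went up in Huh7, from 11.48, 11.39, 11.55 and 11.44 to 11.81, 11.86, 11.82 and 11.80 (0.36, SE 0.07, adjusted p = 9.12e-05), and down in HepG2, from 10.98, 10.98, 10.98 and 10.98 to 10.55, 10.66, 10.61 and 10.60 (-0.38, SE 0.07, adjusted p = 5.58e-05). The arrays of each pair of groups were apart, but the rise in Huh7 became 0.02 (adjusted p = 0.88) with arrays scaled to a common median. PDHB, the E1 beta subunit, was 12.25, 12.16, 12.22 and 12.21 with DMSO and 11.91, 11.91, 11.96 and 11.87 with SAHA in HepG2 (-0.30, SE 0.09, adjusted p = 0.00543), and was called in no other treatment comparison. PDK1, the kinase best known as a hypoxia target, gave between -0.37 and -0.11 and was called in none.

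Of the 5 gluconeogenic genes tested, PCK2, FBP1 and PC fell with SAHA in Huh7 and 0 rose, where 29.1% of all genes fell, and G6PC3 and G6PC1 were not called. In HepG2, FBP1 and G6PC3 rose and 0 fell, where 26.9% of all genes rose. PCK2, the mitochondrial phosphoenolpyruvate carboxykinase, fell in Huh7 from 9.92, 9.46, 9.65 and 9.53 to 8.37, 8.40, 8.65 and 8.38 (-1.19, SE 0.10, adjusted p = 8.48e-12) and its other 2 probes by 0.90 and 0.58. In HepG2 it fell with siRNA from 12.93, 13.10, 13.06 and 13.04 to 12.39, 12.19, 12.47 and 11.97 (-0.78, SE 0.10, adjusted p = 3.36e-07); of its other probes one gave -1.46 (adjusted p = 5.85e-08) and one -0.31 (adjusted p = 0.174). The groups were apart in both comparisons. For SAHA in HepG2 the main PCK2 probe gave 0.05 (adjusted p = 0.685) and another -0.63 (adjusted p = 0.00224), so the probes disagree there.

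FBP1, which removes a phosphate from fructose 1,6-bisphosphate, was a dim gene that changed in 3 comparisons. In HepG2 no DMSO array detected it (4.68, 4.81, 4.77 and 4.49) and 3 of 4 SAHA arrays did (6.02, 6.48, 5.16 and 6.66), at least 1.61-fold higher (adjusted p = 6.67e-07). In Huh7 it was 5.53, 5.65, 6.05 and 5.40 with DMSO and 5.22, 4.98, 4.80 and 4.73 with SAHA (-0.73, SE 0.20, adjusted p = 0.00251), detected on 1 of 4 SAHA arrays. With siRNA in Huh7 it rose from 4.91, 5.36, 5.13 and 5.46 to 6.19, 6.10, 6.51 and 6.60 (1.14, SE 0.20, adjusted p = 2.48e-05). In the authors' deposited normalized values the Huh7 changes were larger, -1.30 with SAHA and 1.34 with siRNA, and were not called (adjusted p = 0.129 and 0.15). G6PC3, the glucose 6-phosphatase found outside liver, rose with SAHA in HepG2 from 9.47, 9.41, 9.63 and 9.38 to 10.30, 10.20, 10.11 and 10.12 (0.71, SE 0.11, adjusted p = 1.77e-06), a change of 0.30 (adjusted p = 0.0776) with arrays scaled to a common median. G6PC3 in Huh7 was 8.66, 8.68, 9.05 and 8.62 with scrambled and 8.24, 8.27, 8.76 and 8.59 with HDAC2 siRNA (-0.29, adjusted p = 0.0294), groups that overlapped and whose call was lost without scrambled siRNA replicate 3 or HDAC2 siRNA replicate 1 or 2 (adjusted p up to 0.174), with arrays scaled to a common median (adjusted p = 0.136) and with the compared arrays fitted alone (adjusted p = 0.105). G6PC1, the liver glucose 6-phosphatase, was detected on 9 of 32 arrays, 8 of them HepG2 arrays of the SAHA subset, and was called in no treatment comparison. PC, pyruvate carboxylase, gave -0.37 (adjusted p = 0.0332) with SAHA and -0.37 (adjusted p = 0.044) with siRNA in Huh7, where its arrays were 10.91, 10.59, 10.79 and 11.07 with DMSO, 10.61, 10.42, 10.45 and 10.42 with SAHA, 10.06, 9.77, 9.79 and 9.81 with scrambled siRNA and 9.55, 9.47, 9.43 and 9.52 with HDAC2 siRNA. The SAHA and DMSO arrays overlapped for PC. Both PC calls were lost when its probes were averaged (adjusted p = 0.383 and 0.0829), and each was lost when single arrays were left out.

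The effect of SAHA differed between the lines for 23 of the 38 genes, 13 with a higher change in HepG2 than in Huh7 and 10 with a lower one (all genes 24.1% and 28.1%). Of the 23, 17 were detected on at least 1 array of each of the 4 groups, and among these SLC2A3 (-4.11, HepG2 minus Huh7), PFKFB3 (3.57) and PFKM (-2.06) had the largest differences. The other 6, SLC2A2, SLC2A10, PFKP, PKLR, PDK4 and FBP1, had a group in which no array detected them, so the size of their difference is not measured. The effect of HDAC2 siRNA differed for 22 genes, 11 each way (all genes 18.8% and 18.4%), and 15 of these were detected in each group. The largest differences among the 15 were those of SLC2A1 (1.59), SLC2A3 (1.24) and PFKFB2 (-1.13), while SLC2A2, HK1, PFKFB1, PKLR, LDHB, PDK2 and FBP1 had a group without detection.

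The SAHA change was set against the siRNA change of the same line, the 2 treatments having controls of their own. In Huh7, 8 genes changed more upwards with SAHA than with siRNA and 12 more downwards (all genes 29.0% and 25.7%). SLC2A3 (4.76), HK1 and PFKM (3.46) led upwards, and ENO3 (-1.98) and FBP1 (-1.86) downwards; SLC2A10 was lower too, with no array of its SAHA group detected. In HepG2, 14 were higher and 13 lower (all genes 24.2% and 24.5%), and of the 20 of these detected in each group SLC2A10 (2.38) and SLC2A2 (2.32) led on one side and ENO3 (-1.03) on the other. For HK2 in Huh7 the difference was 0.08 (SE 0.20, adjusted p = 0.755). When arrays were scaled to a common median, the higher share of all called genes went from 53.0% to 41.6% in Huh7 and from 49.7% to 31.6% in HepG2, where the median of all genes was -0.21.

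The 2 lines differed in this pathway before treatment. With DMSO, 18 genes were higher and 11 lower in HepG2 than in Huh7 (all genes 30.0% and 30.0%), and with scrambled siRNA 16 were higher and 12 lower (all genes 31.4% and 34.9%). Both control pairs called 25 genes, 14 higher and 9 lower in HepG2 in both, and ENO3 and PFKP in opposite directions, PFKP being undetected on the scrambled siRNA arrays of both lines. The share of all genes called in both pairs was not counted, so these counts have no background here. SLC2A3 had the largest difference, 6.67 with DMSO and 7.51 with scrambled siRNA. SLC2A2 was at least 4.83-fold and at least 19.9-fold higher in HepG2, and PCK2 (2.47 and 3.95), SLC2A10 (2.31 and 3.71) and SLC16A3 (1.87 and 4.39) were higher too. PC (-1.96 and -2.25), PFKM (-1.58 and -1.89) and ALDOC (-0.92 and -2.31) were lower in HepG2. HK2 was higher in HepG2 with DMSO (1.20, adjusted p = 7.11e-09) and gave -0.19 (adjusted p = 0.246) with scrambled siRNA.

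**Figure D4:**
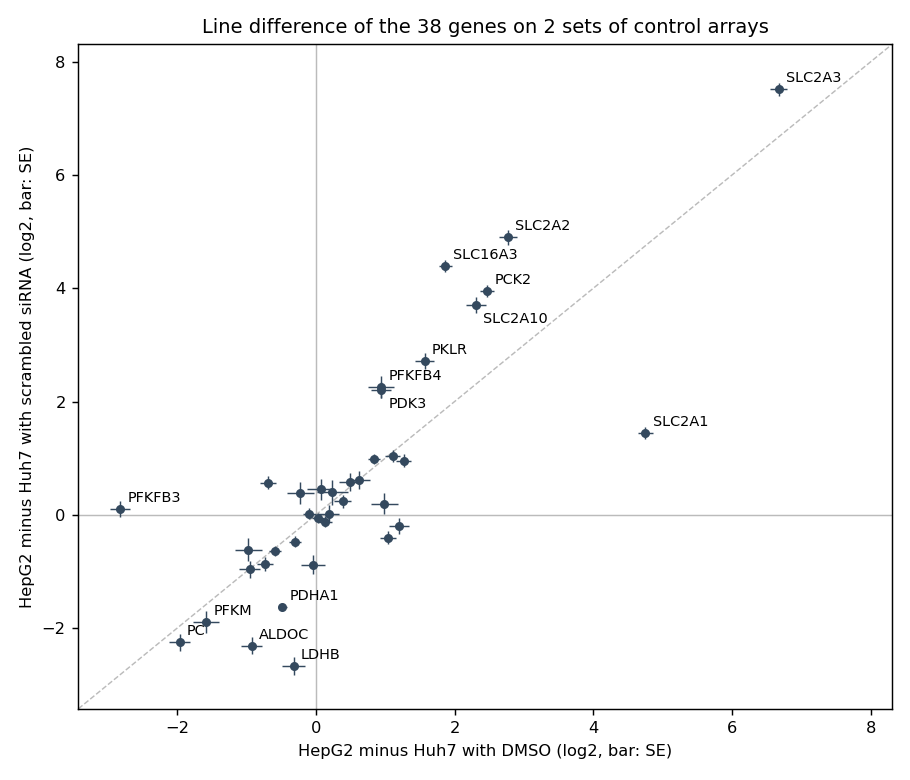
HepG2 minus Huh7 difference (log2) of the 38 genes on DMSO arrays (x axis) and on scrambled siRNA arrays (y axis), with SE bars from the model; the dashed line marks equal difference and genes with a difference of at least 1.5 are named. SLC2A3 is far above the others at 6.67 and 7.51, SLC2A1 lies far below the line (4.75 and 1.45) and PFKFB3 differs with DMSO alone (-2.82 and 0.11).

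The control arrays of one line also differed between the subsets for some genes. SLC2A1 in HepG2 was 12.68 ± 0.23 (SD, n = 4) with DMSO and 10.22 ± 0.05 with scrambled siRNA. In Huh7 SLC16A3 was 11.20 ± 0.10 and 8.79 ± 0.29, ALDOC 11.33 ± 0.21 and 9.67 ± 0.23, and LDHB 5.11 ± 0.23 and 7.59 ± 0.16. Solvent, transfection and any difference in handling of the subsets cannot be told apart here, and each treatment was set against the control of its own subset.

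Genes that neighbour the pathway were taken from lists chosen by function, with earlier results of these data known. The counts of all these lists are to be read against the shares of all genes that rose and fell, 31.6% and 29.1% with SAHA in Huh7, 26.9% and 27.6% in HepG2, 22.9% and 22.4% with siRNA in Huh7, and 18.8% and 17.9% in HepG2; with 8 to 30 genes a list, several lay near them, and no list was tested. Of 13 further glycolytic enzymes with a detected probe, 6 rose and 3 fell with SAHA in Huh7, 5 rose and 4 fell in HepG2, 5 rose and 2 fell with siRNA in Huh7, and 3 rose and 6 fell in HepG2. ENO2, the neuronal enolase, rose with SAHA by 2.31 (SE 0.16, adjusted p = 1.08e-13) in Huh7 and 1.06 (SE 0.16, adjusted p = 1.3e-06) in HepG2, while ENO1 and ENO3 fell in both lines. PKM, the pyruvate kinase of tumours, rose by 0.56 (adjusted p = 2.09e-05) and 0.90 (adjusted p = 7.26e-09) with SAHA. With siRNA ENO2 rose in Huh7 (1.09, adjusted p = 1.29e-06) and fell in HepG2 (-0.54, adjusted p = 0.00836), and PKM fell in HepG2 (-0.61, adjusted p = 2.44e-05). PGM1, which links glucose 1-phosphate to glycolysis, fell with SAHA by 0.74 in Huh7 and by 1.96 in HepG2.

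The next lists have the same background. Among 12 other transport genes, 4 rose and 2 fell with SAHA in Huh7, 7 and 5 in HepG2, and 3 and 2 with siRNA in Huh7 and 2 and 3 in HepG2. BSG, the chaperone of the lactate carriers, rose with SAHA in Huh7 (1.12, adjusted p = 6.85e-12) and HepG2 (0.71, adjusted p = 9.18e-08). MPC1, a subunit of the mitochondrial pyruvate carrier, fell in HepG2 with SAHA (-1.60, adjusted p = 8.16e-11) and siRNA (-1.12, adjusted p = 4.84e-07). Of 8 partners of pyruvate dehydrogenase, MPC1 among them, 3 rose and 2 fell with SAHA in Huh7 and 0 rose and 3 fell in HepG2; siRNA gave 1 and 2 in Huh7 and 2 and 4 in HepG2. DLAT, the E2 subunit, fell by 1.31 with SAHA and by 1.05 with siRNA in HepG2 (adjusted p = 3.01e-11 and 2e-08). In 10 other gluconeogenic genes, 2 rose and 3 fell with SAHA in Huh7, 3 and 3 in HepG2, 1 and 4 with siRNA in Huh7 and 1 and 5 in HepG2, with GOT2, the mitochondrial aspartate aminotransferase, lower in all 4 (-0.56, -0.48, -0.33 and -0.53).

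Of 9 pentose phosphate genes, 1 rose and 1 fell with SAHA in Huh7, 2 and 3 in HepG2, 2 and 3 with siRNA in Huh7 and 4 and 2 in HepG2. RPIA, ribose 5-phosphate isomerase, fell by 3.09 with HDAC2 siRNA in Huh7 (adjusted p = 1.69e-19) and by 2.29 in HepG2 (adjusted p = 5.74e-16). Of 18 glycogen genes, 4 rose and 5 fell with SAHA in Huh7, 3 and 9 in HepG2, 4 and 4 with siRNA in Huh7 and 3 and 2 in HepG2. PPP1R3C, a targeting subunit of glycogen phosphatase, rose in Huh7 with SAHA (2.32, SE 0.17, adjusted p = 1.69e-13) and with siRNA (2.24, SE 0.17, adjusted p = 1.57e-12). Of 20 genes of the tricarboxylic acid cycle, 7 rose and 6 fell with SAHA in Huh7 (35.0% and 30.0%, close to all genes), 2 and 10 in HepG2, 8 and 4 with siRNA in Huh7 and 4 and 9 in HepG2. SUCLG2, a subunit of succinyl-CoA ligase, fell with SAHA by 2.48 in Huh7 and by 1.40 in HepG2.

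Of 30 regulators of glucose metabolism, 4 rose and 11 fell with SAHA in Huh7 and 10 rose and 2 fell in HepG2; siRNA gave 9 and 6 in Huh7 and 5 and 9 in HepG2. TXNIP, an arrestin that limits glucose uptake, rose in all 4 comparisons, by 4.05 (SE 0.19, adjusted p = 7.12e-18) and 2.39 (SE 0.19, adjusted p = 2.86e-12) with SAHA and by 1.38 (adjusted p = 4.14e-07) and 1.53 (adjusted p = 1.67e-07) with siRNA. CEBPA, a hepatocyte factor that drives gluconeogenic genes, fell by 2.56 with SAHA in Huh7 and gave 0.21 (adjusted p = 0.0726) in HepG2. FOXO3, an insulin-regulated factor, rose with siRNA in both lines, by 1.93 (adjusted p = 4.45e-15) and 0.74 (adjusted p = 2.93e-06). Of 20 hypoxia targets outside glycolysis, 6 rose and 7 fell with SAHA in Huh7 (30.0% and 35.0%, again close to all genes), 9 and 3 in HepG2, 4 and 5 with siRNA in Huh7 and 6 and 5 in HepG2. CA12, a carbonic anhydrase, fell by 1.97 with SAHA in Huh7 and rose by 3.48 in HepG2. Of 17 genes of fructose, galactose and hexosamine metabolism, 6 rose and 6 fell with SAHA in Huh7, 7 and 4 in HepG2, 4 and 7 with siRNA in Huh7 and 4 and 5 in HepG2; AKR1B1, aldose reductase, rose with SAHA in both lines (1.61 and 0.86).

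Markers of cell state moved beside these results. With SAHA 31.6% of all genes rose and 29.1% fell in Huh7, and 26.9% and 27.6% in HepG2. For siRNA these shares were 22.9% and 22.4% in Huh7 and 18.8% and 17.9% in HepG2. No marker list was tested. All 10 hepatocyte markers were detected on every DMSO array of both lines. All 10 hepatocyte markers fell with SAHA in Huh7 (median -1.51), and their summed linear signal went from between 101259 and 106373 to between 53570 and 56476. In that comparison 8 of the 38 pathway genes rose and 15 fell. In HepG2 1 rose and 2 fell with SAHA (sums of 193333 to 206308 and 186982 to 195897), and with siRNA 4 rose and 2 fell in each line. Of 7 leukocyte markers with a detected probe, 5 rose with SAHA in HepG2. The signal summed over all 9 listed leukocyte markers went from between 2337 and 2767 to between 9479 and 10368. The defining markers PTPRC and ITGAM were detected on no HepG2 array of that subset. In Huh7 SAHA gave 3 higher and 3 lower and the sum went from between 3916 and 4380 to between 1022 and 1324, and siRNA gave 0 and 2 in Huh7 and 2 and 1 in HepG2. Of 8 fibroblast and endothelial markers with a detected probe, 4 rose and 1 fell with SAHA in Huh7 and 3 rose in HepG2. The sum over all 10 listed markers went from between 330 and 467 to between 914 and 965 in HepG2. HDAC2 siRNA called 0 of the 8 in Huh7 and 1 in HepG2. Their part in the changes of the pathway was not tested.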

How the data were processed

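Biotin-labelled cRNA of 32 total RNA samples was read on Illumina bead arrays. Per the labels, total RNA came from Qiagen mini kits, and GenomeStudio 2011.1 is named in the submitters' processing notes. The authors deposited 24526 probe intensity values per array, not normalized, with a detection p-value for each, per the file headers; a second deposited table holds the authors' normalized intensity values, which were used as an alternative.

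From the intensities, background was corrected in limma 3.58.1 (R 4.3.3, package data.table at 1.17.8; nec, normexp from the detection p-values, offset 16), followed by quantile normalization and log2. Probes detected (p under 0.05) on at least 4 arrays were kept (16121 probes, 12973 genes), and a gene was read by its detected probe with the highest mean. Symbols matched current names for 20406 probes, older names for 3265 and none for 855. A model of 8 group means (24 residual degrees of freedom, prior 5.78) gave two-sided moderated tests for 10 comparisons, with Benjamini-Hochberg adjustment over all genes. On simulated data of the SAHA comparison in Huh7 (12973 genes, 200 changed), 95% of changes of 1 and 100% of changes of 2 were recovered, and 4.41% of calls were false. In the arrays themselves the SAHA comparison in Huh7 called 60.7% of all genes. The share of false calls among these was not tested. Where no array of a group detected a gene, a fold is a bound, the brighter mean over the lowest detected signal of each array. The number of arrays limits the precision.

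The members and gene lists were chosen with earlier results of these data known. Every member with a detected probe was named; values by array were given for up to 4 members a role with the smallest adjusted p and for members called in opposite directions. Of each other list, up to 4 genes with the smallest adjusted p could be named. Alternatives were other background, offset, scaling, filter, probe and model choices, and leaving out each array. Replicate numbers were checked for pairing: deviations of same-numbered arrays correlated at -0.14 to 0.262, over 0.1 in 4 of 16 pairs, so they were not used as a block. Figures were drawn with matplotlib 3.10.9 in python 3.11.15.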

Additional observations from a re-analysis of the deposited data

Results flagged for a closer look

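The SAHA effect differed between the lines, by the interaction term of the limma model at an adjusted p under 0.05, for 23 genes. As HepG2 minus Huh7 on the log2 scale, the carriers gave SLC2A1 0.77, SLC2A2 1.04, SLC2A3 -4.11, SLC2A8 1.48 and SLC2A10 3.80, and the lactate carrier SLC16A3 gave -0.63. In upper glycolysis and its control, GPI gave 0.96, PFKM -2.06, PFKP 1.40, PFKFB3 3.57 and ALDOC -1.11. In lower glycolysis TPI1 gave -0.77, GAPDH -0.43, PGK1 0.50, ENO1 0.72, ENO3 0.41 and PKLR -1.36. PDHA1 gave -0.73, PDK3 -0.48 and PDK4 -0.64, and in gluconeogenesis G6PC3 gave 0.67, PCK2 1.24 and FBP1 2.12. The PDK3 difference was not called in 22 of the 32 fits that left out 1 array, nor without background correction (adjusted p = 0.108). That of ENO3 was not called in 6 of those fits. SLC2A2, SLC2A10, PFKP, PKLR, PDK4 and FBP1 had a group in which no array detected them, so the size of their values rests on a level at background.

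The HDAC2 siRNA effect differed for 22 genes by the same test. SLC2A1 gave 1.59, SLC2A2 -1.31, SLC2A3 1.24, SLC2A8 0.88, SLC2A10 -0.53, and SLC16A3 -1.07. HK1 gave 1.31, HK2 0.54, PFKM 0.74, PFKFB1 0.89 and PFKFB2 -1.13. TPI1 gave -0.40, PGK1 0.57, ENO1 0.43, ENO3 -0.54, PKLR -0.55 and LDHB 1.09. PDHA1 gave 0.60, PDK2 -0.63, PDK3 -0.91, PCK2 -0.88 and FBP1 -0.92. The same limit holds here for SLC2A2, HK1, PFKFB1, PKLR, LDHB, PDK2 and FBP1. Some of these differences were not called in fits that left out 1 array: SLC2A10 in 6 fits, HK2, PDK2 and PKLR in 5 each and PFKM in 4.

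A single array stood far from the other 3 of its group in 19 of 304 groups of 4 (by Dixon's gap over range, at its 95% limit), about the 1 in 20 that chance gives. In Huh7 with scrambled siRNA these were replicate 1 of PFKL (8.43), ALDOC (9.34) and PC (10.06) and replicate 3 of G6PC3 (9.05). With HDAC2 siRNA in Huh7 they were replicate 4 of SLC2A8 (11.95) and PFKFB3 (10.40) and replicate 1 of PDHB (11.18). In Huh7 with DMSO or SAHA they were SLC2A2 (DMSO replicate 1, 5.19, and SAHA replicate 3, 5.16), both not detected, and with SAHA replicate 3 of SLC2A10 (5.22) and PCK2 (8.65) and replicate 1 of PC (10.61). In HepG2 they were SLC2A10 with DMSO (replicate 2, 8.45), replicate 4 of G6PC1 (5.97) and PFKFB3 (10.25) and replicate 2 of PCK2 (12.12) with SAHA, LDHA with scrambled siRNA (replicate 2, 14.23), and replicate 2 of SLC2A10 (8.33) and PDHA1 (10.51) with HDAC2 siRNA.

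A second HK1 probe, which did not pass the detection filter, was detected on SAHA arrays alone, at a mean of 5.08 in Huh7 and 5.29 in HepG2, against 4.63 and 4.68 with DMSO.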

How the results depend on the processing

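Of 82 calls in the 4 treatment comparisons, 61 were kept under every alternative that tested their gene. Among these were the calls of HK1 with SAHA and of LDHA in all 4 comparisons. Each of the 82 calls was counted once under each setting that tested its gene. In these counts, settings other than leaving out an array took away 33 of 958, and leaving out an array 47 of 2624. The filter for probes detected on every array did not test HK1 and other genes detected on fewer, so their calls could not be lost there. Where the text gives no cause for a changed value, the cause was not tested.

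With probes detected on all 32 arrays, only 24 members could be tested, and the members called higher were 5 and 6 with SAHA (Huh7, HepG2) and 4 and 2 with siRNA. That filter gave 7 higher and 5 lower for the line difference of siRNA, 5 and 7 higher for SAHA against siRNA (Huh7, HepG2), and 6 lower in HepG2 with scrambled siRNA. The line difference of siRNA had 6 lower members with each array scaled to one median and 7 in the authors' normalized table, which also gave 9 higher for SAHA against siRNA in HepG2. With only the arrays compared in the fit, siRNA in HepG2 called 5 members lower, and 2971 genes in all against 4749; with array weights it called 3410.

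Scaling to one median turned GAPDH to 0.36 for siRNA in HepG2 and to 0.46 for its line difference, and LDHA to -0.45 for SAHA against siRNA in HepG2. In the authors' table PKLR became 0.25 and PDK4 0.99 for the line difference of SAHA, FBP1 0.94 for that of siRNA, and PKLR 0.44 for SAHA against siRNA in HepG2 and -0.11 for HepG2 against Huh7 with DMSO. With a gene's probes averaged, PFKFB2 became 0.38 for SAHA in Huh7 and PCK2 -0.27 for siRNA in Huh7.

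Without each replicate in turn, the counts of members higher and lower ran from 8 to 8 and 14 to 16 for SAHA in Huh7, 13 to 14 and 13 to 15 in HepG2, 7 to 8 and 10 to 12 for siRNA in Huh7, and 3 to 4 and 7 to 8 in HepG2. They ran from 12 to 13 and 9 to 10 for the line difference of SAHA and 9 to 12 each for that of siRNA, from 8 to 9 and 12 to 12 for SAHA against siRNA in Huh7 and 12 to 15 and 13 to 14 in HepG2, and from 18 to 18 and 11 to 12 with DMSO and 15 to 17 and 12 to 12 with scrambled siRNA between lines. The replicate numbers do not pair the samples, and 5 of 16 control arrays correlated best with the treated array of their own number; with the replicate block, PC with siRNA in Huh7 (-0.37, adjusted p = 0.0548) was the one treatment call lost. Quantile normalization within each line was not used for comparisons between lines. Genes at the dim end (FBP1, PFKP, PFKFB1, PDK2, LDHB, PDK4 in HepG2) were limited by signal over background.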
